A study of Mus musculus with 41 samples.

Results

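Lactylation of lysine 18 of histone H3 (H3K18la) was compared between muscle tissue and muscle cells grown in a dish. The tissue was mouse gastrocnemius (GAS), the large muscle of the calf. The cells were primary myotubes (MT), multinucleated muscle cells formed in culture by the fusion of myoblasts (MB). Both came from the strain C57BL/6 (C57Bl6/J for GAS in the study's methods), with control treatment only and no transgene named in the labels. Per the study's methods GAS came from females aged 8 to 12 weeks, was snap-frozen and gave up its nuclei by douncing, with no selection of cell type. MT were obtained from MB after 3 days in a low-serum DMEM medium and harvested with trypsin, and the sex and age of the mice behind these cultures are not given in the sources used here. The profiles are CUT&Tag, in which an antibody guides a transposase to cut and tag the DNA next to the modified histone. GAS and MT contributed 2 samples each, 4 of the 41 samples of the series, and 2 of its 24 peak lists. Peaks on chromosomes 1 to 19 and X were merged across both lists into 52180 regions. A region was called GAS-only, MT-only or shared by which list had a peak in it, with an overlap of 1 bp counted. All 8 H3K18la lists of the series merged to 84826 regions.

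A muscle is mostly fibres by mass, but many of its nuclei belong to other cells. Endothelial cells line its capillaries, fibro-adipogenic progenitors (FAPs) and tenocytes make its matrix and tendon, satellite cells are its stem cells, and macrophages, pericytes, Schwann cells and adipocytes lie between the fibres. A culture of myotubes lacks blood vessels, nerve and load, and its cells express genes of embryonic muscle. H3K18la, like H3K27ac, is an active mark of promoters and enhancers, H3K4me3 marks active and poised promoters, and H3K27me3 marks chromatin repressed by Polycomb. The question put to the GAS-only regions was which of them lie at genes of the mature fibre and which at genes of the other cells of the tissue.

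Replicates of each group had been pooled before peak calling, so GAS and MT have 1 peak list each, no value below has a replicate error, and no test was possible. Shares carry a 95% Wilson interval, which covers counting error only, and genes or regions that share a locus are not independent. Peak maxima are given as deposited and are not comparable between the lists, so the lists are compared by the percentile of a peak's maximum signal within its own list. In bulk material a smaller number of cells with the mark and less of the mark per cell cannot be told apart.

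The strongest peak free of any exon was taken from each of several groups of loci to show what such regions look like. Each sequence is the 200 bp around the signal maximum, forward strand of GRCm38 (the assembly of mm10). Capitals mark matches to the motifs counted later in the text. The first 3 come from GAS-only regions at genes of the mature fibre. They lie in an intron of Xirp2, which encodes an actin-binding protein of the fibre, 4004 bp from the nearest start site of Pvalb, the calcium buffer parvalbumin of fast fibres, and 9453 bp from that of Slc25a4, the ADP/ATP carrier of muscle mitochondria.
Xirp2, GAS-only, chr2:67481043-67481242: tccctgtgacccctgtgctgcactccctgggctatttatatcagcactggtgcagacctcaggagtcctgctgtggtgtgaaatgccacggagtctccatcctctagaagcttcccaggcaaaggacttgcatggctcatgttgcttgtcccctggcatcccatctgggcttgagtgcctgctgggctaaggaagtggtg
Pvalb, GAS-only, chr15:78210304-78210503: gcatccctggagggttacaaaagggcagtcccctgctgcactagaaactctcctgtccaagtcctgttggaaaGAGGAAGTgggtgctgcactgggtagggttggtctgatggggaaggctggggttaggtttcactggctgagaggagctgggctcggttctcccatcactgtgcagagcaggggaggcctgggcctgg
Slc25a4, GAS-only, chr8:46220637-46220836: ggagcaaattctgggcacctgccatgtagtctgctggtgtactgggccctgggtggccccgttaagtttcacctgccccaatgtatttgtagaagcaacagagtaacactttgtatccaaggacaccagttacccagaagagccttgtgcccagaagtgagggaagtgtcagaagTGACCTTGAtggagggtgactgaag
The next 2 come from GAS-only regions at genes of other cells of the tissue, an intron of Erg, an endothelial transcription factor, and an intron of Smoc2, which encodes a secreted matrix protein of fibroblasts.
Erg, GAS-only, chr16:95403576-95403775: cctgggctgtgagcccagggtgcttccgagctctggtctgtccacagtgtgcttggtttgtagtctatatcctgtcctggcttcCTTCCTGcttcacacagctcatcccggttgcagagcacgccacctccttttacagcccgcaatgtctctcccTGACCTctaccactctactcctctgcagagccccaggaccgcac
Smoc2, GAS-only, chr17:14372886-14373085: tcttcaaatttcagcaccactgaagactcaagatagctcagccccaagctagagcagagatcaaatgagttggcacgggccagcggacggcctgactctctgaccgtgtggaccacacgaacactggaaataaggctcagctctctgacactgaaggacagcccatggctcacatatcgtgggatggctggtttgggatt
The last 2 are the MT-only peak beyond the gene body of Ncam1, an adhesion molecule of developing and denervated muscle, and the shared peak 11523 bp from the start site of Acta1, skeletal muscle actin.
Ncam1, MT-only, chr9:49816310-49816509: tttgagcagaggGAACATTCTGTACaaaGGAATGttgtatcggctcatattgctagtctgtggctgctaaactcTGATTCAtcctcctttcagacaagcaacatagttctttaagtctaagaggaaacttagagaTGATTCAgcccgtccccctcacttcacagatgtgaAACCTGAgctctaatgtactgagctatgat
Acta1, shared, chr8:123883128-123883327: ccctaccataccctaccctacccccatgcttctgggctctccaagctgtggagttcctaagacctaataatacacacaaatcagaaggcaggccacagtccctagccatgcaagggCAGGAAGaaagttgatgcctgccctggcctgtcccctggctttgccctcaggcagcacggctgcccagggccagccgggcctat
The Slc25a4 window holds the ERR motif, which contains the nuclear receptor motif. The Erg window holds an ETS and a nuclear receptor motif, the Ncam1 window glucocorticoid receptor, TEAD, AP-1 and MEF3 motifs, the Pvalb window PU.1 and the Acta1 window ETS. The Xirp2 and Smoc2 windows hold none of the 12 motifs. The maximum signal of these peaks was 111 (Xirp2), 143 (Pvalb), 157 (Slc25a4), 148 (Erg) and 157 (Smoc2) in GAS, 418 at Ncam1 in MT, and 284 in GAS (percentile 99.3) against 385 in MT (percentile 96.9) at the Acta1 region.

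GAS had 36813 peaks covering 123.1 Mb, with a median width of 2331 bp, and MT had 33991 peaks covering 136.8 Mb, with a median width of 2965 bp. Mean coverage per called base was 18.7 in GAS and 23.3 in MT, and the read depth of the samples cannot be read from these lists. Of the 52180 merged regions, 19438 were GAS-only, or 37.3% (36.8 to 37.7%), 17851 were MT-only, or 34.2% (33.8 to 34.6%), and 14891 were shared, or 28.5% (28.1 to 28.9%). Shared regions were wider, with a median of 4743 bp against 2112 bp for GAS-only and 2675 bp for MT-only. Bases called in both lists made up 42.3% of the GAS bases and 38.1% of the MT bases. The 1-bp rule rarely decided the class. Only 172 shared regions (1.16%) had less than 500 bp in common, and 1335 GAS-only regions (6.87%) and 716 MT-only regions (4.01%) lay within 1000 bp of the other list.

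The position of the regions relative to genes differed by class. A promoter (2000 bp on either side of any annotated transcript start) was touched by 47.1% of shared regions (46.3 to 47.9%), 29.2% of GAS-only regions (28.6 to 29.9%) and 23.8% of MT-only regions (23.1 to 24.4%). MT-only regions were more often intergenic, at 37.2%, than GAS-only regions, at 24.7%. GAS-only regions were more often confined to introns, at 35.5% against 29.2%.

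When each list was cut to its 5000 peaks of largest total signal, 8187 regions remained, of which 1550 were shared, or 18.9% (18.1 to 19.8%), 3282 were GAS-only (40.1%) and 3355 were MT-only (41.0%). Most of these single-list regions had a peak in the complete other list. Of the 3282 GAS-only regions, 2149 (65.5%) overlapped a peak of the complete MT list, and of the 3355 MT-only regions, 2013 (60.0%) overlapped a peak of the complete GAS list. Peaks of the complete lists without a partner had a lower maximum signal than peaks with one, a median of 48.0 against 63.0 in GAS and 79.0 against 98.0 in MT.

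Among the 10 GAS-only regions of largest total signal, the strongest lay in Zbtb16, which encodes a zinc finger repressor. This gene held the regions of rank 1 and 3, at chr9:48810539-48840188 over a promoter and at chr9:48768151-48791224 in an intron. The second, chr9:102501993-102523713, covered a promoter of Ky, the kyphoscoliosis peptidase that maintains the Z-disc. The fifth covered a promoter of Fkbp5, a co-chaperone of the glucocorticoid receptor (chr17:28506696-28526781). The sixth lay within Sox6, a repressor of slow-fibre genes (chr7:115464549-115482142). The seventh covered a promoter of Txnip, an inhibitor of glucose uptake (chr3:96545705-96565132). The others lay in introns of Itpkb, Nfib and Rab11fip3 and 107264 bp from the start of Mn1. These 10 regions took between 195.7 and 458.5 ppm of the in-peak signal of GAS. All 10 overlapped GAS H3K27ac (57.7% of all GAS-only regions), and none overlapped the MB H3K18la list (1.45% of all). Of the 10, 7 overlapped H3K18la of white fat adipocytes (ADIPO) and 6 overlapped that of macrophages from injured muscle (PIM), against 26.3% and 19.6% of all. These regions are wide, and a wide region is more likely to overlap any list. Among the 3282 GAS-only regions of the 5000-peak repeat, with a median width of 7235 bp, the shares were 95.1% for H3K27ac and 16.4% for MB. They were 52.7% for ADIPO and 40.2% for PIM.

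The 10 MT-only regions of largest total signal took between 237.6 and 509.5 ppm of the MT signal. Protein-coding genes under them were Adamts16, a secreted metalloprotease, Myo1d, an unconventional myosin, Smyd3, a lysine methyltransferase, and Ldlrad3. The first, chr13:70709062-70737505, lay in Adamts16. The eighth, chr11:95153107-95166791, was 6844 bp from the start of Dlx4. All 10 overlapped the MB list (28.2% of all MT-only regions), and 2 overlapped GAS H3K27ac (17.5% of all). Among the 3355 MT-only regions of the 5000-peak repeat, which are also wide, the shares were 69.6% and 44.2%. The 6 shared regions of largest signal overlapped every other list used here, with maxima of up to 77246, and 5 of the 6 overlapped predicted genes only.

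Promoters of protein-coding genes gave the background for the gene lists. A promoter call took all annotated starts of a gene together, so peaks of different lists can lie at different starts. Of 21755 such genes, 11.5% had a promoter peak in GAS only, 10.2% in MT only and 24.6% in both. Counting any peak within 10000 bp of the gene body, 11.2% of loci were GAS-only, 11.7% were MT-only and 40.6% had peaks in both. With 5000 peaks per list the promoter values were 5.26% for GAS only, 3.35% for MT only and 3.04% for both. A gene called in only one of these short lists can have a peak in the complete other list. Genes of cells absent from both samples served as a reference. Of 16 neuronal genes, 14 were called in neither list, 1 in both (Camk2a) and 1 in GAS only (Stmn2), and of 16 hepatocyte genes, 11 were called in neither, 1 in GAS only (Apoa2, 66) and 4 in MT only (Ahsg, 253, F2, 194, Cyp7a1, 67, and Fgb, 52). Of 16 housekeeping genes, 13 were called in both and none in a single list. Of these, Gapdh stood at percentile 97.2 of the GAS list and 89.4 of the MT list, and Actb at 92.7 and 13.95.

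**Figure D1:**
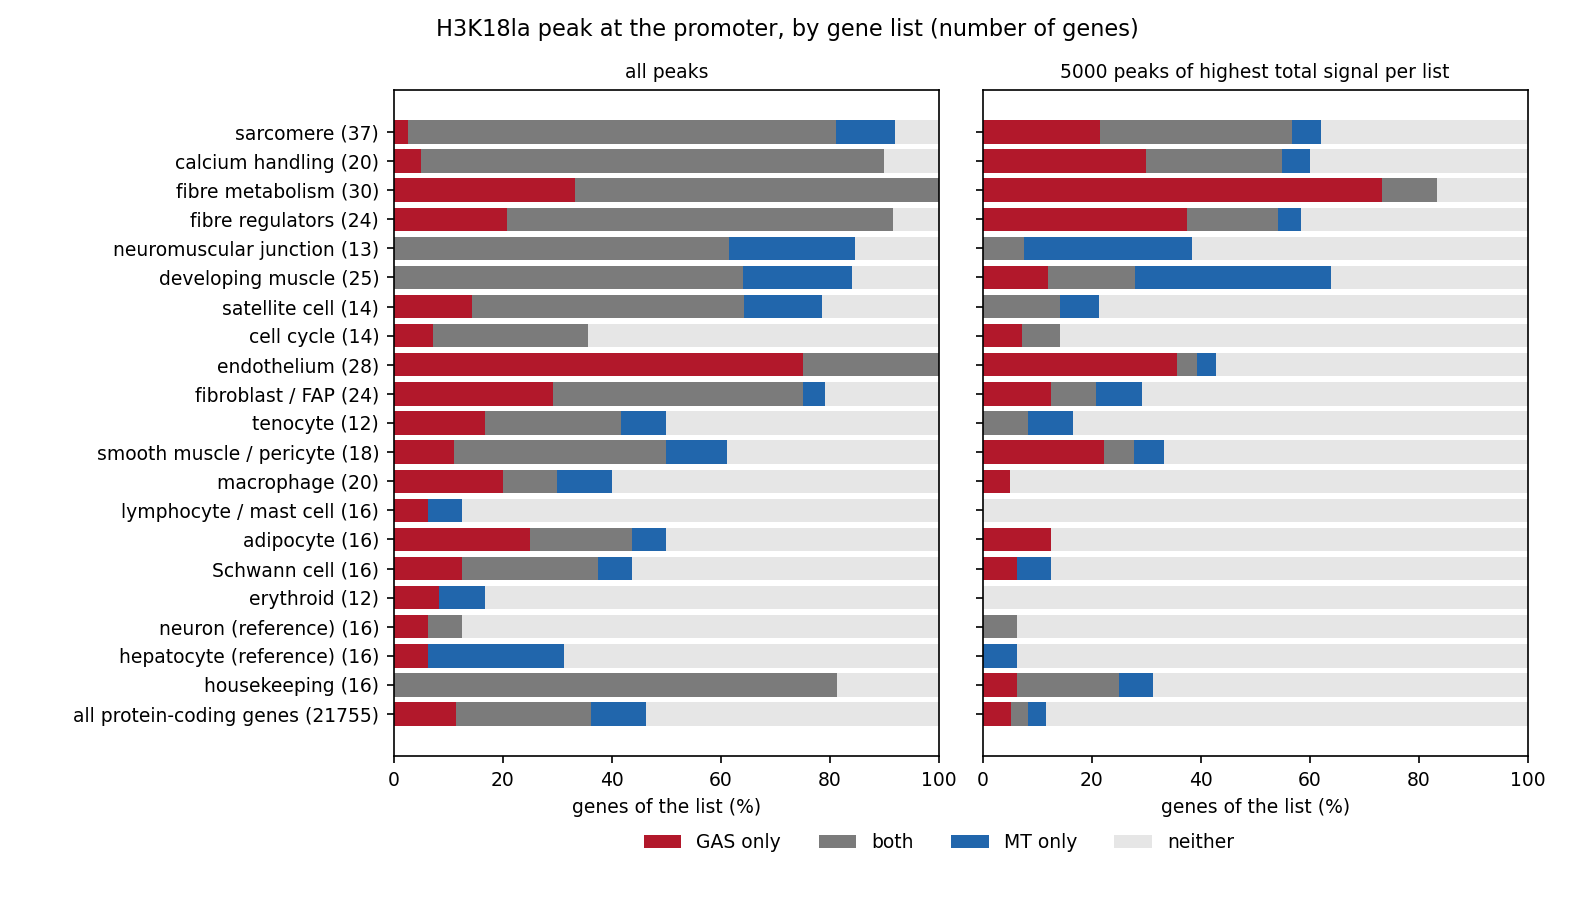
Share of each gene list (horizontal axis, percent of genes) whose promoters had an H3K18la peak in GAS only, in both lists, in MT only or in neither, with the number of genes in brackets, for all peaks (left) and for the 5000 peaks of largest total signal per list (right). Endothelial genes have the longest GAS-only bar on the left (21 of 28), and fibre metabolism has the longest on the right (22 of 30). A GAS-only gene on the right can have an MT peak in the complete list.

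The contractile apparatus was largely shared. Of 37 sarcomere genes, 29 were called at the promoter in both lists, 1 in GAS only, 4 in MT only and 3 in neither. At the level of the locus, 33 of 37 had peaks in both. Myot, the Z-disc protein myotilin, reached a maximum of 248 in GAS (percentile 98.9) and 145 in MT (percentile 75.4). Fbxo32, an atrophy ubiquitin ligase, stood at percentiles 98.2 and 75.4, and Tnnc2, fast troponin C, at 97.4 and 72.75. The 1 GAS-only member was Mybpc2, fast myosin-binding protein C, with a maximum of 126. The 4 MT-only members were Myh7, the slow myosin heavy chain (287, percentile 93.5), Myoz2, a slow-fibre Z-disc protein (105), Tnnt1, slow troponin T (62), and Myh1, a fast myosin heavy chain (54).

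The skeletal myosin heavy chains fell into different classes, which did not follow fibre type. Myh4, the fast IIb myosin, was called in both lists, at percentile 68.0 in GAS and 30.5 in MT, and its GAS peak, chr11:67230923-67238364, was 7442 bp wide against 2755 bp in MT. Myh1 was called at the promoter in MT only, and Myh2, the IIa myosin, in neither, while both had peaks of both lists within 10000 bp. Myh3, the embryonic myosin, was called in MT only (maximum 138, chr11:67074630-67080651), and Myh8, the perinatal myosin, had no peak at its promoter or within 10000 bp in either list. Myh7 was called in MT only and its promoter overlapped H3K27me3 in both GAS and MT. Acta1 was called in both lists. Its GAS promoter peak was narrow (maximum 60, percentile 57.9, 3943 bp), while 1 MT peak of 20696 bp (385, percentile 96.9) covered both the promoter and the distal site shown above, where a separate GAS peak stood at percentile 99.3.

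Calcium handling followed the sarcomere. Of 20 genes, 17 were called at the promoter in both lists, 1 in GAS only, none in MT only and 2 in neither. The GAS-only gene was Clcn1, the chloride channel that sets the resting conductance of adult fibres, with a maximum of 267 (percentile 99.1) at chr6:42282572-42289544. The MB, PIM and BMDM lists of H3K18la (myoblasts, and macrophages from injured muscle and grown from bone marrow) had a peak at this promoter, and the MT list had none within 10000 bp of the gene. Casq1, the calcium store protein of fast fibres, reached 234 in GAS (percentile 98.6) and 72 in MT (percentile 38.6). Cacng1, a subunit of the voltage sensor, reached 196 and 436, which are percentiles 97.3 and 97.9. Stac3, an adaptor of the same channel, stood at percentiles 95.2 and 55.55.

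The metabolic genes of the fibre were the fibre group with most GAS-only promoters. Of 30 genes for glycolysis, glycogen, fatty acid and phosphocreatine metabolism, 10 were called in GAS only, 20 in both and none in MT only, against 11.5% GAS-only over all genes. At the level of the locus 4 of 30 were GAS-only, 13.3% (5.31 to 29.7%), near the 11.2% of all loci, and 26 had peaks in both. The 10 GAS-only promoters included Pfkm, muscle phosphofructokinase (maximum 187, chr15:98106855-98122925), Phkg1, the catalytic subunit of phosphorylase kinase (176, chr5:129867582-129875940), Ampd1, AMP deaminase (147, chr3:103068287-103084935), and Cpt1b, the muscle carnitine palmitoyltransferase (138, chr15:89425463-89426596). All 10 overlapped GAS H3K27ac and GAS H3K4me3, and 3 overlapped MT H3K27me3, beside 74.8%, 89.3% and 22.5% of all GAS-only promoters. Among those called in both, Pdk4, which diverts pyruvate from oxidation, reached 230 in GAS (percentile 98.4) and 83 in MT (percentile 47.1). Ckm, muscle creatine kinase, reached 211 (percentile 97.9) and 126 (percentile 69.5). Adssl1, the muscle adenylosuccinate synthase, stood at percentiles 97.6 and 89.2. Over the 20 shared promoters the GAS percentile was the higher in 19, with a median difference of 32.9 points. Over the 5353 promoters of all genes called in both it was the higher in 67.0%, with a median difference of 11.1 points. Mb, myoglobin, was the exception among the 20, with 110 in GAS (percentile 87.0) and 388 in MT (percentile 97.0).

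**Figure D2:**
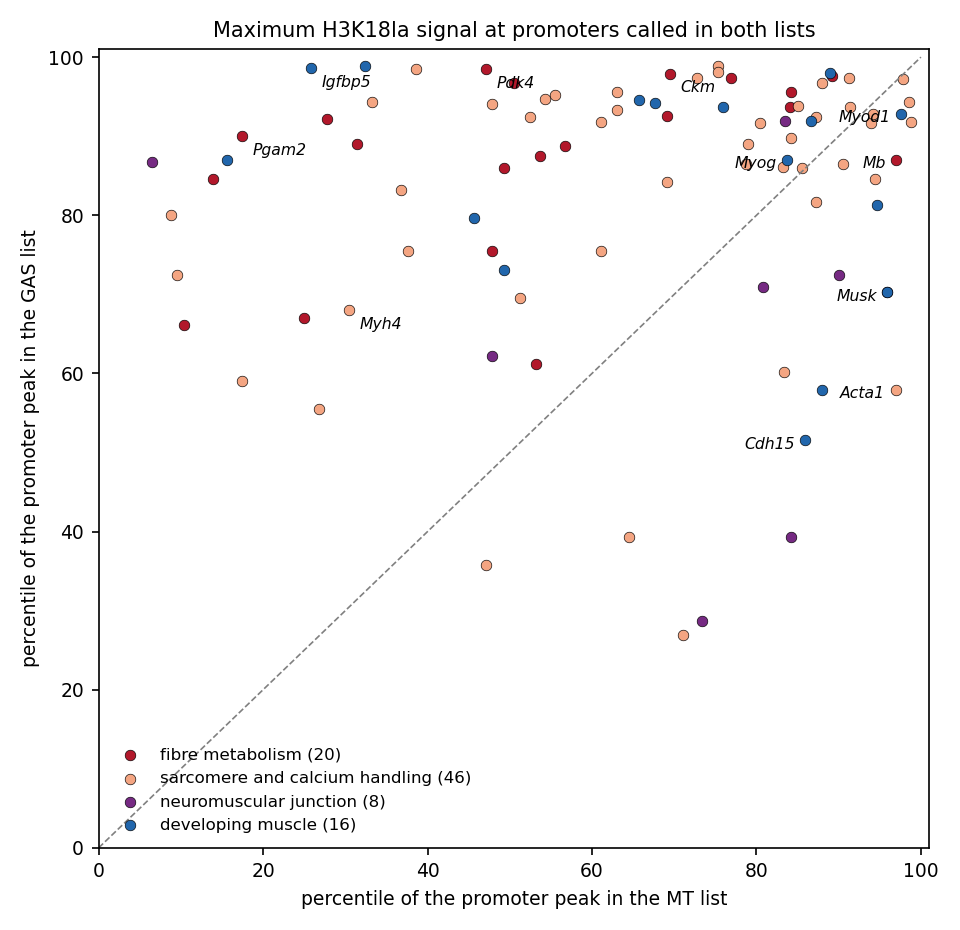
Percentile of the promoter peak's maximum signal within the MT list (horizontal axis) and within the GAS list (vertical axis) for genes called in both lists, coloured by gene list with the number of genes in brackets. Fibre metabolism genes lie above the dashed line of equal rank in 19 of 20 cases, and the promoter peaks of Acta1, Musk and Cdh15 lie below it.

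Regulators of the fibre had 5 of 24 promoters in GAS only, 17 in both, none in MT only and 2 in neither. The GAS-only share was 20.8% (9.245 to 40.5%), an interval that holds the 11.5% of all genes. The GAS-only regulators were Klf15, a glucocorticoid target that controls amino acid use (maximum 191, percentile 97.0, chr6:90460962-90479285), Sox6 (123), Foxo1, which drives atrophy and fasting genes (79), Ppara, a receptor for fatty acids (75), and Vgll2, a cofactor of TEAD factors (70). Of these 5, 4 overlapped GAS H3K27ac and 4 overlapped MT H3K27me3, beside 74.8% and 22.5% of all GAS-only promoters. Myf6, the myogenic factor of adult fibres, was called in both, at percentile 98.9 in GAS and 44.9 in MT. Its GAS peak, chr10:107487118-107500910, is also the promoter peak of the neighbouring Myf5, so the pair is not separate there. Mef2d, by contrast, had similar ranks, with 194 in GAS (percentile 97.2) and 285 in MT (percentile 93.4). Within 10000 bp of its genes, promoters included, this list held 166 GAS-only, 17 MT-only and 51 shared regions, counted per gene. GAS-only regions made up 70.9% of these, against 39.1% over all protein-coding loci. Of the 166, 71 lay at Rora, a nuclear receptor of lipid metabolism and the clock. Of the 165 distinct GAS-only regions, 144 lay outside promoters.

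Genes of the neuromuscular junction and of developing muscle had, in the complete lists, single-list promoters in MT alone. Of 13 junction genes, 3 were called in MT only, 8 in both, none in GAS only and 2 in neither. The MT-only share was 23.1% (8.18 to 50.3%), an interval that holds the 10.2% of all genes. With 5000 peaks per list it was 4 of 13, 30.8% (12.7 to 57.6%), against 3.35% of all genes. The 3 were Chrna1 (maximum 348, chr2:73574197-73595637) and Chrnd (133), subunits of the acetylcholine receptor, and Ache, acetylcholinesterase (30). Musk, the kinase that clusters this receptor, was called in both, with 73 in GAS (percentile 70.3) and 346 in MT (percentile 95.9). Dok7, its activator, stood at percentiles 91.97 and 83.5, Prkar1a, a kinase subunit, at 72.4 and 90.0, and Colq, the anchor of acetylcholinesterase, at 86.7 and 6.51. Of 25 genes of developing muscle, 5 were called in MT only, 16 in both, none in GAS only and 4 in neither. The MT-only share was 20% (8.86 to 39.1%), which again holds the 10.2% of all genes. With 5000 peaks per list 9 of 25 were MT-only, 36% (20.25 to 55.5%), against 3.35% of all genes, and 3 of 25 were GAS-only, 12% (4.17 to 29.96%), against 5.26%. Among the 16 in both, the GAS percentile was the higher in 11, with a median difference of 13.4 points, near the 67.0% and 11.1 points over all genes. The loci held 29 GAS-only and 27 MT-only regions. GAS-only regions made up 28.2% of all regions there, against 39.1% over all protein-coding loci. Mymk, the fusion protein myomaker, had the highest of the 5 MT-only promoter peaks, with 555 (percentile 99.0, chr2:27067880-27086839). Chrng, the fetal receptor subunit (177), Tnnt2, cardiac and embryonic troponin T (166), Myh3 (138) and Ncam1 (135) were the others. All 5 overlapped MB H3K18la, which was found at 21.2% of all MT-only promoters. Myod1, the master regulator of myogenesis, was called in both, at percentile 92.9 in GAS over 1920 bp and 97.6 in MT over 44331 bp. Myog, which drives differentiation, stood at percentiles 87.0 and 83.7, and Mymx, the partner of myomaker, at 97.9 and 89.0. Igfbp5, an insulin-like growth factor binding protein, reached 238 in GAS (percentile 98.6) and 58 in MT (percentile 25.9).

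Genes of satellite cells, the stem cells of muscle, and of the cell cycle were read against the same shares of 11.5% GAS-only and 10.2% MT-only. Pax7, the satellite cell factor, had no promoter peak in either list and had 3 GAS-only regions within 10000 bp. Of 14 satellite cell genes, 2 were GAS-only (Chodl and Cxcr4, both with a maximum of 34), 2 were MT-only (Megf10 with 114 and Notch3 with 86), 7 were in both and 3 in neither. Heyl, a Notch target, stood at percentile 65.2 in GAS and 97.9 in MT. Fgfr1, a growth factor receptor, stood at 99.2 and 75.4, Sdc4, a syndecan of satellite cells, at 97.9 and 95.4, and Spry1, an inhibitor of such receptors, at 77.1 and 26.8. Of 14 cell cycle genes, 9 were called in neither list, 4 in both and 1, the replication factor Mcm2, in GAS only (72). Myc was among those in both, at percentiles 94.3 in GAS and 88.9 in MT, as were Pcna (55.5 and 60.5) and Ccnd1 (25.0 and 56.2).

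Endothelial genes stood out among the cell types other than muscle. Of 28 endothelial genes, 21 had a promoter peak in GAS only, 75.0% (56.6 to 87.3%), 7 in both, and none in MT only or in neither. Cdh5, VE-cadherin of the endothelial junction, reached a maximum of 217 (percentile 98.1, chr8:104100374-104102433). Sox18, a vascular transcription factor, reached 119 (chr2:181671428-181679373), Eng, the co-receptor endoglin, 93 (chr2:32635705-32648578), and Tek, the angiopoietin receptor, 92 (chr4:94737539-94740675). The other GAS-only members included the receptors Kdr and Flt1 and the factors Erg, Fli1, Tal1, Sox7 and Sox17, with maxima of 36 to 69. Pecam1, an adhesion molecule of endothelium, was called in both. Its highest GAS peak reached 209 (percentile 97.8, chr11:106656651-106680809) and its MT peak 67 (percentile 34.2, chr11:106750604-106752699), and these are different peaks at different annotated starts. Cldn5, a tight junction protein, stood at percentiles 80.9 and 51.9, and S1pr1, a lipid receptor, at 80.03 and 5.815. Within 10000 bp of the 28 genes lay 87 GAS-only, 12 MT-only and 19 shared regions, so 73.7% of these regions were GAS-only, against 39.1% over all protein-coding loci.

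Fibroblast and FAP genes had 7 of 24 promoters in GAS only, 29.2% (14.9 to 49.2%), against 11.5% of all genes. A further 11 were called in both, 1 in MT only and 5 in neither. At the level of the locus 5 were GAS-only, 20.8% (9.245 to 40.5%), an interval that holds the 11.2% of all loci. With 5000 peaks per list 3 were GAS-only, 12.5% (4.34 to 31.0%), which holds the 5.26% of all genes. The GAS-only genes were led by Cd34, a surface protein of FAPs and of endothelium (156, chr1:194938115-194947059), Mfap5, a microfibril protein (116, chr6:122512596-122515162), Col6a2, a collagen VI chain (63), and Clec3b, tetranectin (54). Pdgfra, the receptor that defines FAPs, was GAS-only with a maximum of 50 (percentile 44.2) and 3 GAS-only regions at its locus. The collagen genes Col1a1, Col1a2 and Col3a1 were called in both lists, at percentiles of 34.0, 54.2 and 41.0 in GAS and 37.6, 84.2 and 75.1 in MT. The MT-only gene was Dpp4 (82). Among those in both, Gsn stood at percentile 93.5 in GAS and 80.2 in MT, Col15a1 at 80.4 and 17.5, and Dpt at 74.9 and 92.5.

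The remaining cell types gave small counts, and the interval of the GAS-only share in each of these 7 lists held the 11.5% of all genes. Of 20 macrophage genes, 4 were GAS-only (8.07 to 41.6%), 2 were MT-only, 2 were in both and 12 in neither. They included Fcer1g (70), C1qa (36) and C1qb (27), and all 4 were also called in both macrophage lists of the series (PIM, macrophages from injured muscle, and BMDM, macrophages grown from bone marrow), which held 47.9% and 18.2% of all GAS-only promoters. Csf1r, the receptor that macrophages depend on, was called in both, with 37 in GAS (percentile 21.1) and 33, near the bottom of the list, in MT (percentile 4.52). Spi1, which encodes the macrophage factor PU.1, was called in both at percentiles 99.0 and 79.0, and Cd14 (79) and Cd68 (76) were MT-only. Of 16 adipocyte genes, 4 were GAS-only (10.2 to 49.5%), Gpd1 (154), Lipe (112), Pparg (50) and Aoc3 (49), while Adipoq and Plin1, which define adipocytes, had no promoter peak in either list. Fasn was MT-only (93), and Dgat2, Plin4 and Cebpa were in both, at percentiles 97.1, 96.1 and 84.9 in GAS and 96.2, 7.96 and 48.6 in MT. Of the other groups, the GAS-only counts were 2 of 12 tenocyte genes, 2 of 18 smooth muscle and pericyte genes, 2 of 16 Schwann cell genes, 1 of 16 lymphocyte and mast cell genes and 1 of 12 erythroid genes. The MT-only counts for these groups were 1, 2, 1, 1 and 1. The GAS-only genes were Chad (42) and Comp (33) of tenocytes, Abcc9 (74) and Higd1b (40) of pericytes, Cnp (53) and Erbb3 (47) of Schwann cells, Cd79b (56) of B cells and Klf1 (43) of red cells. Acta2, smooth muscle actin, was called in both, at percentile 30.5 in GAS and 95.2 in MT.

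Together the 5 fibre lists held 17 GAS-only promoters among 124 genes, 13.7% (8.74 to 20.9%), an interval that holds the 11.5% of all genes, and the 9 lists of other cells held 44 among 162, 27.2% (20.9 to 34.5%). Without endothelium, a choice made after seeing the data, the second share was 17.2% (11.7 to 24.4%), with a lower bound close to the share of all genes. At the level of the locus, 8 of 124 fibre genes were GAS-only, 6.45% (3.3 to 12.2%), and 40 of 162 genes of other cells, 24.7% (18.7 to 31.9%), against 11.2% of all loci. The GAS-only promoters of the fibre genes stood higher in the GAS list. Their peaks had a median percentile of 89.8, with a range of 66.1 to 99.1 and a median width of 6525 bp. Those of the other cells had a median percentile of 52.9, with a range of 4.51 to 98.1 and a median width of 2896 bp, and over all 2502 GAS-only genes the median was 55.5 and the width 2106 bp. In the repeat with 5000 peaks per list the order of the groups turned. The fibre lists then had 45 of 124 promoters in GAS only, 36.3% (28.4 to 45.1%), and the other cells 21 of 162, 13.0%, against 5.26% of all genes. Fibre metabolism alone had 22 of 30 in GAS only and none in MT only, and endothelium had 10 of 28. These calls held 11 of the 17 fibre promoters and 8 of the 44 promoters of other cells that lacked an MT peak in the complete lists. For fibre metabolism they held 7 of 10 such promoters and for endothelium 6 of 21. The other calls had an MT promoter peak in the complete list, so they describe rank and not a missing MT peak.

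Other marks of GAS, which played no part in the classes, differed between the GAS-only regions of these loci. Peak size differed as well. GAS-only promoter peaks had a median percentile of 89.8 and width of 6525 bp at fibre genes, against 52.9 and 2896 bp at genes of the other cells. The H3K27ac share was also higher, at 95.1%, among the stronger GAS-only regions of the 5000-peak repeat. How far peak size accounts for the shares below was not tested. Within 10000 bp of fibre genes lay 274 GAS-only regions, and 248 of them overlapped GAS H3K27ac, 90.5% (86.5 to 93.4%). Within 10000 bp of genes of the other cells lay 213, and 83 overlapped it, 39.0% (32.7 to 45.7%). Over all 19438 GAS-only regions the share was 57.7%. The lists of absent cells held few regions, of which 4 of 10 at neuronal genes (16.8 to 68.7%) and 3 of 4 at hepatocyte genes (30.06 to 95.4%) overlapped H3K27ac, so the share at the other cells was not separate from that at neuronal genes. Without Rora the fibre share was 90.6% of 203 regions, and without endothelium the share at the other cells was 49.2% of 126, both chosen after seeing the data. The gap was similar away from promoters, with 89.8% of 205 regions and 35.7% of 112. By list, the shares were 90.7% for the sarcomere, 96.4% for calcium handling, 93.8% for fibre metabolism, 24.1% for endothelium (16.4 to 34.1%, 87 regions) and 34.1% for fibroblasts and FAPs (21.9 to 48.9%, 44 regions). The neuromuscular junction had 83.3% of 6. Among the further lists of other cells, smooth muscle and pericytes had 55.2% of 29, macrophages 50% of 16, Schwann cells 58.3% of 12, adipocytes 54.55% of 11 and tenocytes 42.9% of 7, and all regions at lymphocyte and mast cell (5) and erythroid (2) genes overlapped H3K27ac. H3K27me3 of GAS was found on 4.01% of the regions at fibre genes (2.26 to 7.05%), beside 5.16% of all GAS-only regions, and on 17.8% of those at genes of the other cells (13.3 to 23.5%). Endothelium held 20 and fibroblasts and FAPs 12 of those 38 regions, while smooth muscle and pericytes held 1 of 29 and tenocyte, lymphocyte and erythroid loci none. At neuronal genes 2 of 10 regions overlapped H3K27me3 (5.67 to 50.98%), and at hepatocyte genes none of 4 did.

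**Figure D3:**
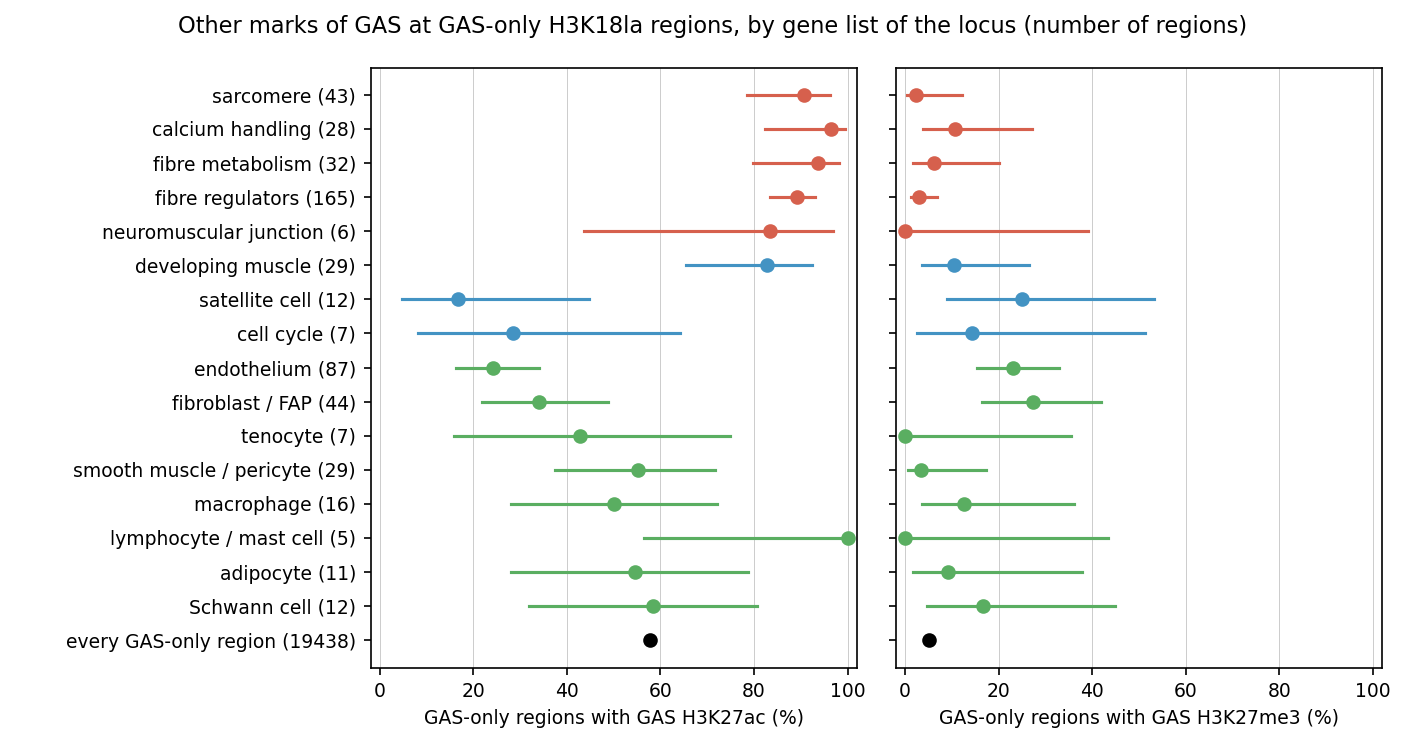
Share of GAS-only H3K18la regions within 10000 bp of the genes of each list that overlapped GAS H3K27ac (left) or GAS H3K27me3 (right), in percent with 95% Wilson intervals, and the number of regions in brackets; fibre lists are red, culture lists blue, other cells green and all GAS-only regions black (neuronal, hepatocyte and erythroid lists are not drawn). The sarcomere, calcium handling, fibre metabolism and regulator lists lie at or above 89.1% for H3K27ac and endothelium at 24.1%.

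The promoters themselves were also compared. Of the 17 GAS-only promoters of fibre genes, 16 overlapped GAS H3K27ac, all 17 overlapped GAS H3K4me3 and 4 overlapped GAS H3K27me3, 23.5% (9.56 to 47.3%). Of the 44 GAS-only promoters of genes of other cells, 19 overlapped H3K27ac, 38 overlapped H3K4me3 and 18 overlapped H3K27me3, 40.9% (27.7 to 55.6%). For the 21 endothelial promoters the counts were 7, 21 and 11. Over all 2502 GAS-only promoters the shares were 74.8% for H3K27ac, 89.3% for H3K4me3 and 18.4% for H3K27me3, and the H3K27me3 intervals of both groups overlapped. The endothelial genes with H3K18la and H3K27me3 in one tissue included Kdr, Flt1, Erg, Fli1, Sox17, Sox18 and Tal1. Cdh5 and Eng had H3K27ac and no H3K27me3. H3K27me3 of MT covered 8 of the 17 fibre promoters, 18 of the 44 promoters of other cells and 22.5% of all GAS-only promoters. Marks on the same nuclei and marks on different nuclei cannot be told apart in bulk tissue.

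Over whole classes, GAS-only regions overlapped MT H3K27me3 in 9.27% of cases (8.87 to 9.69%), shared regions in 3.21% and MT-only regions in 2.92%. The mirror image held for GAS H3K27me3, which overlapped 9.70% of MT-only regions (9.28 to 10.2%), 5.16% of GAS-only and 5.39% of shared regions. MT-only regions overlapped GAS H3K27ac in 17.5% of cases and shared regions in 74.6%. Among the 3282 GAS-only regions of the 5000-peak repeat the H3K27ac share was 95.1% (94.3 to 95.8%).

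**Figure D4:**
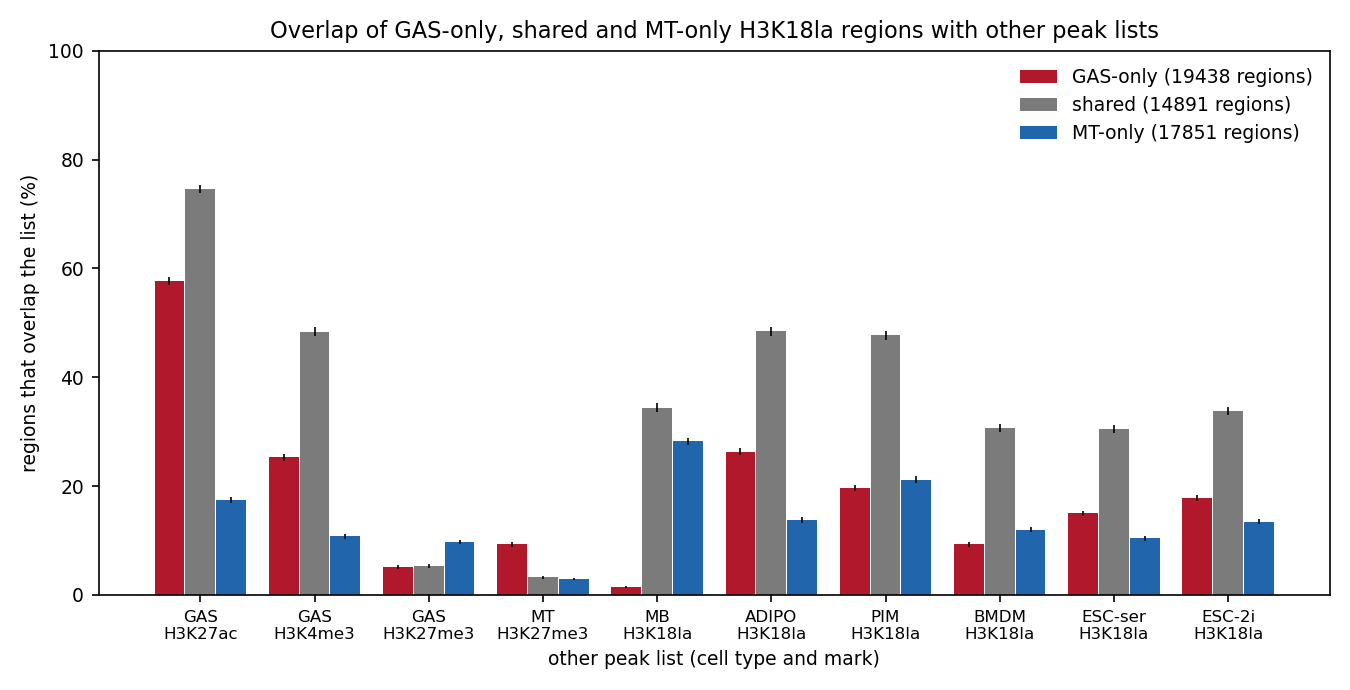
Share of GAS-only, shared and MT-only regions (vertical axis, percent, with 95% Wilson intervals) that overlap each of 10 other peak lists, named by cell type and mark. The widest gaps between GAS-only and MT-only regions are for GAS H3K27ac (57.7% and 17.5%) and MB H3K18la (1.45% and 28.2%). The MB and BMDM lists come from a single sample each.

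The H3K18la lists of the other cell types set the GAS-only regions beside purified or cultured cells. The MB and BMDM lists come from a single sample each and cover 40.5 and 22.55 Mb, against 76.6 Mb for ADIPO and 68.9 Mb for PIM. Myoblasts, from which MT are made, had a peak in 282 GAS-only regions (1.45%), 28.2% of MT-only regions and 34.4% of shared regions. Adipocytes (ADIPO, nuclei captured from white fat) had a peak in 26.3% of GAS-only regions (25.7 to 26.9%) and 13.8% of MT-only regions (13.3 to 14.3%). Per the study's methods the ADIPO nuclei came from female AdipoCre-NuTRAP mice. For PIM the order was not the same, with 19.6% of GAS-only and 21.2% of MT-only regions. For BMDM the shares were 9.30% and 12.0%. By bases, 27.9% of the GAS-only regions and 18.4% of the MT-only regions lay in an ADIPO, PIM or BMDM peak. Counted by regions, the shared class had the largest share in each of these lists, up to 48.5% for ADIPO, but shared regions are also wider. By bases, MB peaks covered 21.25% of MT-only and 20.35% of shared regions. Of the GAS-only regions, 10038 (51.6%) had no peak in any of the 6 other H3K18la lists, and 54.3% of these overlapped GAS H3K27ac. A further 4019 (20.7%) were found in embryonic stem cells, with or without adipocytes and macrophages, and 282 in MB. As shares of all GAS-only regions, 2473 (12.7%) were found in ADIPO alone, 1677 (8.63%) in macrophages alone and 949 (4.88%) in ADIPO and macrophages.

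For the endothelial promoters these lists hold no endothelial cells to compare with. Of the 21 GAS-only endothelial promoters, 4 were called in ADIPO, 5 in PIM, 4 in BMDM and none in MB. In embryonic stem cells, 10 were called in ESC-ser (grown in serum) and 5 in ESC-2i. Over all 2502 GAS-only promoters the shares were 62.6% for ADIPO, 47.9% for PIM, 18.2% for BMDM, 2.32% for MB, 42.45% for ESC-ser and 48.2% for ESC-2i. ADIPO had a peak at 10 of the 17 GAS-only fibre promoters, 58.8% (36.0 to 78.4%), near its share of all GAS-only promoters, among them Pfkm, Phkg1, Slc25a4 and Klf15.

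Named lists reached a small part of the tissue-restricted regions. Of the 19438 GAS-only regions, 274 (1.41%) lay at the 124 fibre genes and 213 (1.10%) at the 162 genes of other cells, with 2 regions in both sets. The remaining 18953 (97.5%) lay at neither, and 57.4% of those overlapped GAS H3K27ac.

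Sequence at the signal maximum differed most between GAS and MT in the AP-1 motif. Motifs were counted on both strands in the 500 bp around the maximum of each peak, for peaks away from promoters. The AP-1 motif TGANTCA, bound by Fos and Jun dimers, was found in 16.0% of 13749 GAS peaks without an MT partner (15.4 to 16.7%) and 43.7% of 13610 MT peaks without a GAS partner (42.9 to 44.5%). Where the lists overlapped the values were 25.4% in GAS and 36.6% in MT. The E-box CAGCTG, the form that Myod1 and Myog bind, was found in 30.5% and 43.7% of the single-list peaks, and in 39.9% and 47.6% of the overlapping ones. TEAD (GGAATG) was found in 26.3% and 36.1%. MEF3 (TCAGGTT) was found in 8.81% of GAS single-list peaks and 7.40% of MT ones, and the nuclear receptor motif AGGTCA in 36.3% and 32.9%. ETS (CAGGAAG) was found in 23.2% and 20.9%, PU.1 (GAGGAAGT) in 4.47% and 3.88%, and the glucocorticoid receptor motif GNACANNNTGTNC in 1.615% and 0.882%. The MEF2 consensus was found in 2.84% and 2.39%, against 3.38% and 3.505% in the overlapping GAS and MT peaks. Forkhead (TGTTTAC) was found in 8.11% and 7.855%, ERR (TCAAGGTCA) in 1.54% and 1.37%, and NFI (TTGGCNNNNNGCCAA) in 0.0946% and 0.0882%. The PU.1 motif can overlap ETS, and ERR contains AGGTCA. GC content was 47.7% in the GAS single-list windows and 45.6% in the MT ones. In the same 500 bp around the starts of 21750 protein-coding genes, with a GC content of 56.6%, AP-1 was found in 9.79%, the E-box in 26.6% and ETS in 19.2%. A match describes the letters and is not a bound site.

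**Figure D5:**
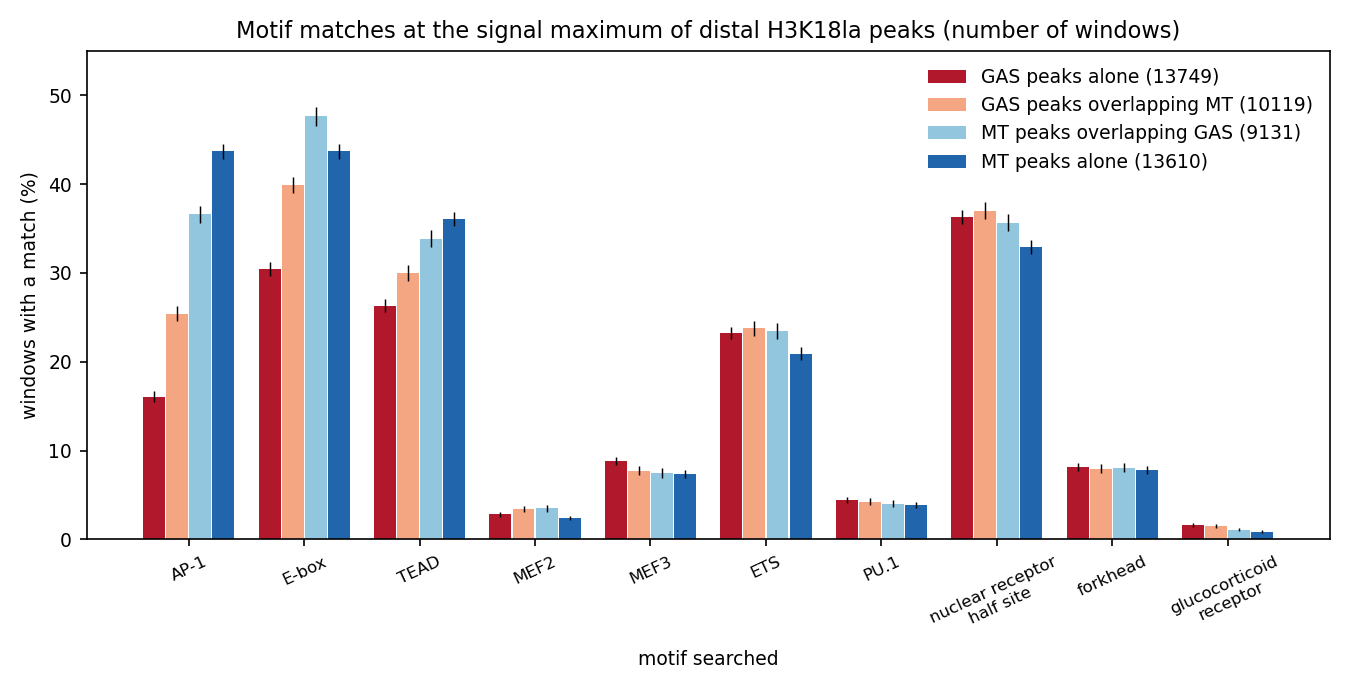
Share of 500-bp windows at the signal maximum of distal peaks that hold each motif (vertical axis, percent, with 95% Wilson intervals), for GAS peaks without an MT partner, GAS and MT peaks that overlap, and MT peaks without a GAS partner, with the number of windows in brackets. The AP-1 share runs from 16.0% in GAS single-list peaks to 43.7% in MT single-list peaks.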

How the data were processed

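H3K18la CUT&Tag peak lists of GAS and MT were compared, with 10 further lists of the series for context. Samples were grouped by their titles. The authors trimmed reads (Trim Galore 0.6.6), aligned them to mm10 (Bowtie2 2.4.4), computed fragment coverage (bedtools 2.30), combined replicates and called peaks with SEACR 1.3 (stringent, top 1%). The deposited peak lists hold the total signal (coverage summed over a peak) and the maximum signal of each peak. The other deposited column, the maximum signal, is likewise coverage and was not depth scaled, since all values are whole numbers. Reads per sample were not used here.

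Peaks were merged with interval functions that gave the same result as bedtools 2.31.1 in 80 of 80 checks on simulated data. Transcript starts were those of GENCODE vM21 and all 383 symbols of the 20 gene lists matched. Sequences came from GRCm38.p6. Python 3.11.15, numpy 2.4.6 and pandas 2.3.3 were used. Named genes were, per list, up to 4 members called in GAS only, 4 in MT only and 3 in both, by maximum signal, plus fixed anchor genes and the genes at the 10, 10 and 6 strongest regions. Further genes were named after their values were seen (Vgll2, Rora, Heyl, Musk, Mb, Acta2, Plin1, Ncam1, the collagens and the other endothelial genes). The members and lists were chosen with earlier results of these data known. Alternatives were shorter lists, equal called bases, other overlap and merging rules and other promoter definitions. Some genes that this rule names are not reported here.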

Additional observations from a re-analysis of the deposited data

Results flagged for a closer look

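Both lists held a peak outside the chromosomes compared above. Mitochondrial DNA carried 1 peak in each list, with 2.19% of all in-peak signal in GAS and 8.26% in MT. Chromosome Y carried 9 peaks with 0.0586% of the signal in GAS and 2 peaks with 0.00524% in MT, although the study's methods name females as the source of GAS. These values drew attention because they lie in data that the comparisons did not use. Mitochondrial DNA has no histones. The source of these peaks was not tested.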

How the results depend on the processing

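Of 57 planned values, 26 stayed within the interval of the reported value and 31 moved, the base shares being held to the interval that a share of that size has over the GAS-only regions. With 5000 peaks by maximum signal, the GAS-only, MT-only and shared shares of regions were 42.9%, 43.4% and 13.7%, against 40.1%, 41.0% and 18.9% by total signal. In the same order (maximum, then total signal), promoter shares of GAS-only regions were 44.4% and 48.5%, GAS H3K27ac 94.2% and 95.1%, bases in ADIPO, PIM or BMDM 37.1% and 36.8%, fibre promoters in GAS only 38.7% and 36.3%, and those of other cells 9.26% and 13.0%. MT H3K27me3 was 7.80% by maximum signal. The turn in order between fibre and other cells came with both short lists, and its cause was not tested.

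With equal called bases the class shares were 44.3%, 28.2% and 27.6%, the promoter share 30.5%, H3K27ac 58.8%, MT H3K27me3 8.78% and the base share 29.0%. With peaks up to 1000 bp apart merged, the class shares were 34.9%, 34.7% and 30.4%, H3K27ac 56.0% and MT H3K27me3 10.0%. The promoter share of GAS-only regions was 24.3% with 1000-bp promoters and 17.5% with starts of protein-coding transcripts only. An overlap of 500 bp moved no value out of its interval. These overlap and merging rules give no separate value for promoter calls of genes.

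Chosen after seeing the data, leaving out the 48 GAS and 130 MT peaks of extreme total signal gave 37.7% GAS-only, 28.1% shared and 28.8% of bases, and leaving out endothelium gave 17.2% (23 of 134) for promoters of other cells in GAS only, a change of over 1.5 times. No paired analysis was possible because the replicates of each group were pooled into 1 list. The top 1% rule sets how many peaks each list holds, so a missing peak is not absence of the mark.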

Other observations

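Several genes carried GAS H3K27me3 and GAS H3K18la at one promoter outside the endothelial group. Pdgfra, Mfap5 and Col6a2 of the fibroblast list did so and lacked GAS H3K27ac, and C1qa and C1qb of the macrophage list did so without H3K27ac or H3K4me3. Among GAS-only promoters of fibre genes, 4 of 17 did so, among them Mybpc2 and Sox6, against 18.4% of all GAS-only promoters. Mymk was called for both H3K18la and H3K27me3 in MT, with the highest H3K18la maximum of the developing muscle list (555).

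Satellite cell loci held 12 GAS-only regions, of which 2 overlapped GAS H3K27ac, 16.7% (4.70 to 44.8%). Loci of developing muscle held 29, of which 24 overlapped it, 82.8% (65.5 to 92.4%). Over all GAS-only regions the share was 57.7%.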
